A study of Homo sapiens with 6 samples.

Results

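The baseline transcriptome of control cells labelled NCI-H1299 is described here from 3 of the 6 libraries of a knockout study, across the 35784 gene rows of its expression table. The 3 libraries were chosen by their label, a control genotype, and by no measured value. NCI-H1299 is an established human lung cancer line, labelled as lung adenocarcinoma cells, and was grown in RPMI medium with serum. The study infected cells with lentivirus made from the Cas9 and guide RNA vector LentiCRISPRv2, selected them with puromycin at 2.0 µg/ml for 48 hours, plated them thinly and expanded single-cell colonies before total RNA was isolated with TRIzol. The other 3 libraries come from IGF2BP3 knockout cells and are not compared here. The controls are named KO-NC and H1299lenti. The labels do not say which vector or guide they received, whether they were selected and cloned in the same way, or which colony or culture each library came from. The spread given between libraries may therefore be technical.

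Lung adenocarcinoma commonly arises from cells of the distal airway, which in the healthy lung make surfactant, mucus or club cell secretions. Lung cancer lines often keep the simple keratins of an epithelium while also making vimentin, the intermediate filament of mesenchymal cells. Many of them run the NRF2 programme, in which the transcription factor NRF2 (NFE2L2), when it is no longer degraded through its partner KEAP1, turns on enzymes that reduce aldehydes, quinones and peroxides and that supply glutathione and NADPH.

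The libraries held 75841196, 69943874 and 69973174 counts. Values for single genes are given for control replicates 1, 2 and 3 in that order, and a mean is given ± SD over these 3 libraries (n = 3). Levels are FPKM, the deposited counts scaled by gene length and library size, so that genes of different length can be set side by side. A gene was counted as expressed at a mean of 1 FPKM or more, and silent at 3 counts or fewer in each of the 3 libraries. Small counts were mostly even, so both mates of a read pair appear to be counted. A count of 0 in these libraries then allows up to 3 fragments, or 6 counts, which is 0.0791, 0.0858 and 0.0857 CPM (counts scaled to the library total) and covers counting error only. The lengths behind the FPKM were close to the union of all annotated exons of a gene: 65.9% of the 12553 genes with at least 200 counts in replicate 1 lay within 2% of it. This union was a median of 1.41 times the length of the principal transcript among 10609 expressed protein-coding genes, and at least 2 times for 23.3% of them. FPKM of genes with many annotated isoforms is therefore low, and where this matters the level per kilobase of the principal transcript is given too.

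Of 16851 nuclear protein-coding rows, 10616 (63.0%) were expressed, and the median over all of them was 2.78 FPKM. Levels of 1 to 10 FPKM were found for 6940 of these genes and levels of 10 to 100 for 3447. A further 222 lay between 100 and 1000 FPKM, and 7 lay above. Transcripts of the mitochondrial genome took 24.6%, 24.9% and 24.7% of all FPKM (24.7% ± 0.168), but 6.05% of the counts, since FPKM gives more weight to short genes. The 81 rows of cytosolic ribosomal proteins took 4.92% ± 0.228 of the FPKM. The most abundant row, MT-CO1, which encodes a subunit of cytochrome c oxidase, was at 10148, 10389.5 and 10006 FPKM.

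The 4 genes given as marks (ALDH1A1, AKR1B10, KRT8 and VIM) were all abundant. These genes are not particular to 1 line, so they could not test the label and do not establish which line the cells are. A value that goes against the line name in the labels is not reported here. The identity of the line was not established from these data, and its name is used here only as a label.

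The 25 most abundant nuclear protein-coding messages took 10.5% ± 0.238 of the FPKM. First was FTL, the light chain of the iron store ferritin, at 3558, 3568 and 4047 FPKM (3724 ± 279). The ferritin heavy chain FTH1 was sixth, at 1172, 1228 and 1563 FPKM. Both ferritin chains were highest in replicate 3, while replicates 1 and 2 lay close together. ALDH1A1 (ENSG00000165092, chr9:72900671-73080442), which oxidises retinal and other aldehydes, came second at 2679.6, 2756 and 2847 FPKM (2761 ± 83.9). KRT81, a type II keratin of hair, came at place 3 with 2605, 2626 and 2629 FPKM (2620.1 ± 13.3). The values of KRT81 were nearly equal in the 3 libraries, whose SD was under 1% of the mean. AKR1B10 (ENSG00000198074, chr7:134527567-134541412), an aldo-keto reductase that reduces retinal and lipid aldehydes, stood at place 4 with 2126, 2200.2 and 2162 FPKM (2163 ± 37.3). The glycolytic enzyme GAPDH was next, at 2122, 2145 and 2017 FPKM. The libraries of FTL, ALDH1A1 and KRT81 did not overlap in this order, while those of AKR1B10 and GAPDH did.

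**Figure D1:**
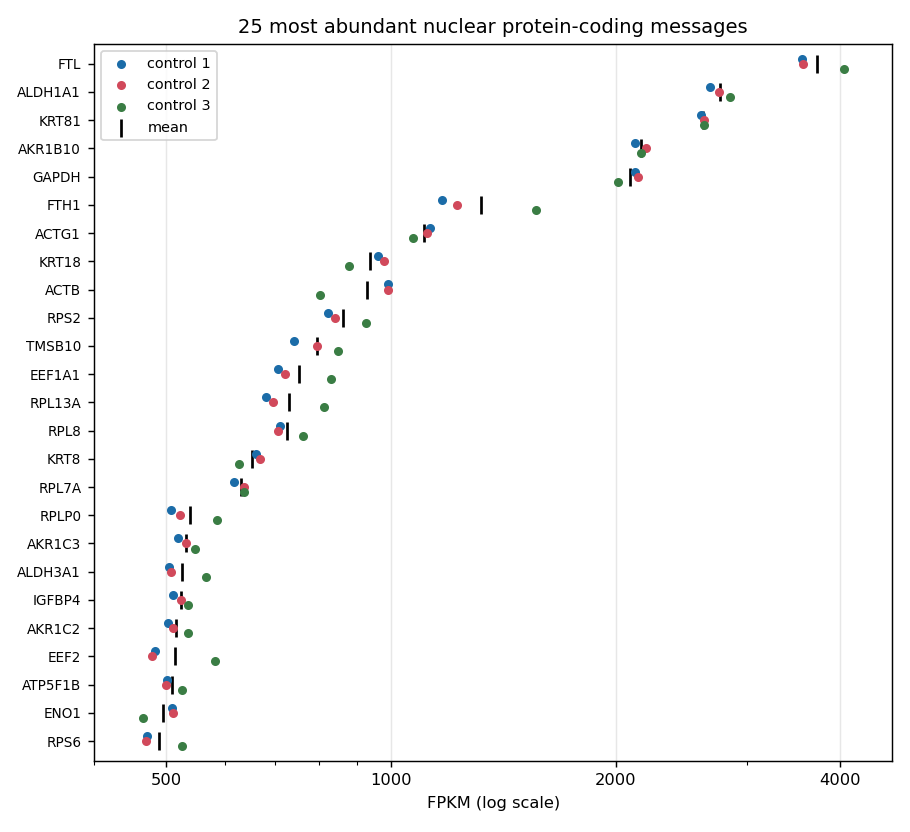
FPKM (log scale) of the 25 most abundant nuclear protein-coding messages, in order of the mean. Coloured points are control replicates 1, 2 and 3 and black ticks are means; FTL, ALDH1A1, KRT81, AKR1B10 and GAPDH all lie above the other 20 in each library.

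The rest of the 25 fell into 4 groups. Cytoskeletal messages were ACTG1 (1106 FPKM), ACTB (991, 991 and 803 FPKM), the actin-binding peptide TMSB10 (796 FPKM) and the keratins KRT18 and KRT8. The translation apparatus gave RPS2, RPL13A, RPL8, RPL7A, RPLP0 and RPS6, from 489 to 864 FPKM, with the elongation factors EEF1A1 (753 FPKM) and EEF2 (514 FPKM). Enzymes of aldehyde and ketone reduction or oxidation gave AKR1C3 (519, 531 and 547 FPKM), AKR1C2 (502, 509.99 and 535 FPKM) and ALDH3A1 (504, 508 and 565 FPKM). The remaining 3 were IGFBP4, a secreted binding protein of insulin-like growth factors (523 FPKM), ATP5F1B, a subunit of the mitochondrial ATP synthase (509 FPKM), and the glycolytic enzyme ENO1 (495 FPKM). AKR1C2 and AKR1C3 have near-identical relatives, as have the actins and KRT81, and the ferritins have pseudogene copies, and reads can be split among such copies. Per kilobase of principal transcript, 19 of these 25 stayed among the first 25 and ALDH1A1 came first.

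KRT8 (ENSG00000170421, chr12:52897187-52949954), the type II keratin of simple epithelia, was at 660.3, 668 and 625 FPKM (651 ± 22.7) and stood at place 15. Its annotated exons are many, and per kilobase of the principal transcript its level was 2104, 3.23 times the FPKM. Its partner KRT18 was at 960.3, 978 and 878 FPKM (939 ± 53.5). VIM (ENSG00000026025, chr10:17228241-17237593) was at 219, 229.5 and 216 FPKM (222 ± 7.002), place 85, and 536 per kilobase of principal transcript. Each of the 4 marks varied little: no library lay more than 1.5-fold from the others.

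Lung lineage genes were mostly low. Of 18 alveolar and lung lineage genes, 8 were expressed and 2 silent, with a median of 0.283 FPKM against 2.78 for all protein-coding genes. The highest was ABCA3, the lipid pump of surfactant-storing lamellar bodies, at 10.5, 10.2 and 10.7 FPKM (10.5 ± 0.2301). NKX2-1, the master regulator of lung epithelium, had 8, 0 and 4 counts. The surfactant genes SFTPC and SFTPA1 were silent. The endoderm factors FOXA1 (5.58 FPKM) and FOXA2 (4.89 FPKM) were expressed in each library, as was the FGF-responsive factor ETV5 (7.57 FPKM).

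Among 12 airway secretory and ciliated genes 6 were expressed. AGR2, a disulfide isomerase of mucus-making cells, was at 108, 110.2 and 129 FPKM (116 ± 11.2). The gel-forming mucins MUC5B (38.97, 37.1 and 43.02 FPKM) and MUC5AC (33.3, 32.4 and 32.6 FPKM) and the goblet cell factor SPDEF (8.998, 9.07 and 10.6 FPKM) were all present. AGR2, MUC5B and SPDEF were highest in replicate 3, and MUC5AC was nearly equal in the 3 libraries. The ciliated cell factor FOXJ1 had 3, 0 and 6 counts and the club cell secretion SCGB1A1 had 0, 1 and 0. CAPS and TPPP3, also listed for ciliated cells, were low but detected, CAPS at 0.638, 0.877 and 1.53 FPKM and TPPP3 at 0.675, 0.697 and 0.567 FPKM. The mean of CAPS lay just over the limit of 1 FPKM, passed in replicate 3 alone.

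The basal and squamous list held 14 genes, 5 of them expressed and none at 10 FPKM. The basal cell factor TP63 was at 3.28, 3.54 and 4.31 FPKM and KRT5, the keratin of basal cells, at 2.41, 2.71 and 2.83 FPKM. SOX2 was at 2.23 FPKM. Among 15 neuroendocrine genes 5 were expressed and 4 silent, among them INSM1, POU2F3 and SCG3. UCHL1, a ubiquitin hydrolase of neurons and neuroendocrine cells, was the exception at 161, 167 and 159 FPKM (162 ± 4.04). The next in level, ENO2, was at 7.86 FPKM, and REST, a repressor of neuronal genes, at 4.12 FPKM.

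Genes of epithelial and of mesenchymal cells were present together. Of 24 epithelial genes 10 were expressed and 9 exceeded 10 FPKM, with a median of 0.741 FPKM. The keratins KRT18, KRT8 and KRT7 (402, 449 and 443 FPKM) led, followed by the factor ELF3 (28.8 FPKM), KRT19 (25.9 FPKM) and E-cadherin, CDH1 (24.3, 23.3 and 26.8 FPKM). The adhesion molecule EPCAM was at 1.84, 1.87 and 1.85 FPKM. Regulators of the epithelial state lay lower, the splicing factor ESRP1 at 0.2004 FPKM and the transcription factor GRHL2 at 0.0618 FPKM. Of the epithelial list 14 genes lay under 1 FPKM.

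Of 24 mesenchymal genes 20 were expressed and 10 exceeded 10 FPKM, with a median of 5.05 FPKM. Others, below VIM, were the calcium-binding S100A4 (201, 213 and 205 FPKM), fibronectin FN1 (181, 172 and 195 FPKM), tropomyosin TPM2 (106, 106 and 108 FPKM) and the receptor kinase AXL (33.5, 32.2 and 34.5 FPKM). N-cadherin, CDH2, was at 13.6, 13.2 and 14.9 FPKM, below CDH1 in each library. The repressors of epithelial genes ZEB1 (2.96 FPKM) and SNAI2 (1.92 FPKM) were expressed, and TWIST1 was at 0.833 FPKM.

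The keratin family had 37 rows, of which 13 were expressed and 9 silent. After KRT81, KRT18, KRT8 and KRT7 the levels dropped to 46.2 FPKM for KRT85, 37.2 for KRT86 and 32.99 for KRT80. KRT81, KRT85 and KRT86 are hair keratins of one gene cluster and KRT86 is a near copy of KRT81, so their separate levels are uncertain. Of 20 claudins, the sealing proteins of tight junctions, 5 were expressed. CLDN2, which forms cation pores, led at 113 FPKM, far above CLDN1 at 12.8 and CLDN12 at 5.903. Of 22 cadherins 5 were expressed, led by CDH1 and CDH2, with CDH17, an intestinal cadherin, next at 3.69, 3.54 and 5.14 FPKM.

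Among 24 integrins 11 were expressed. ITGB1, the beta chain shared by most integrins, was at 187, 189 and 194 FPKM (190.2 ± 3.39). It was followed by the laminin receptor chains ITGA3 (67.2, 68.5 and 63.96 FPKM) and ITGB4 (48.3, 50.2 and 46.01 FPKM), by ITGB5 (59.1, 60.2 and 60.03 FPKM), and at lower levels by ITGA6 (13.5 FPKM) and ITGAV (9.701 FPKM). For none of these 6 integrins did a library lie 1.5-fold from the others. Of 29 other adhesion molecules 24 were expressed, with a median of 9.97 FPKM. They were led by the tetraspanin CD151 (74.3 FPKM), CEACAM6 (48.3, 49.4 and 67.96 FPKM), ALCAM (54.5 FPKM), NRCAM, known from neurons (53.5 FPKM), the hyaluronan receptor CD44 (50.4 FPKM) and plakoglobin, JUP (37.7, 38.5 and 51.3 FPKM). CEACAM6 and JUP were higher in replicate 3 than in both others, as was CEACAM5 at 2.07, 2.22 and 3.65 FPKM.

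**Figure D2:**
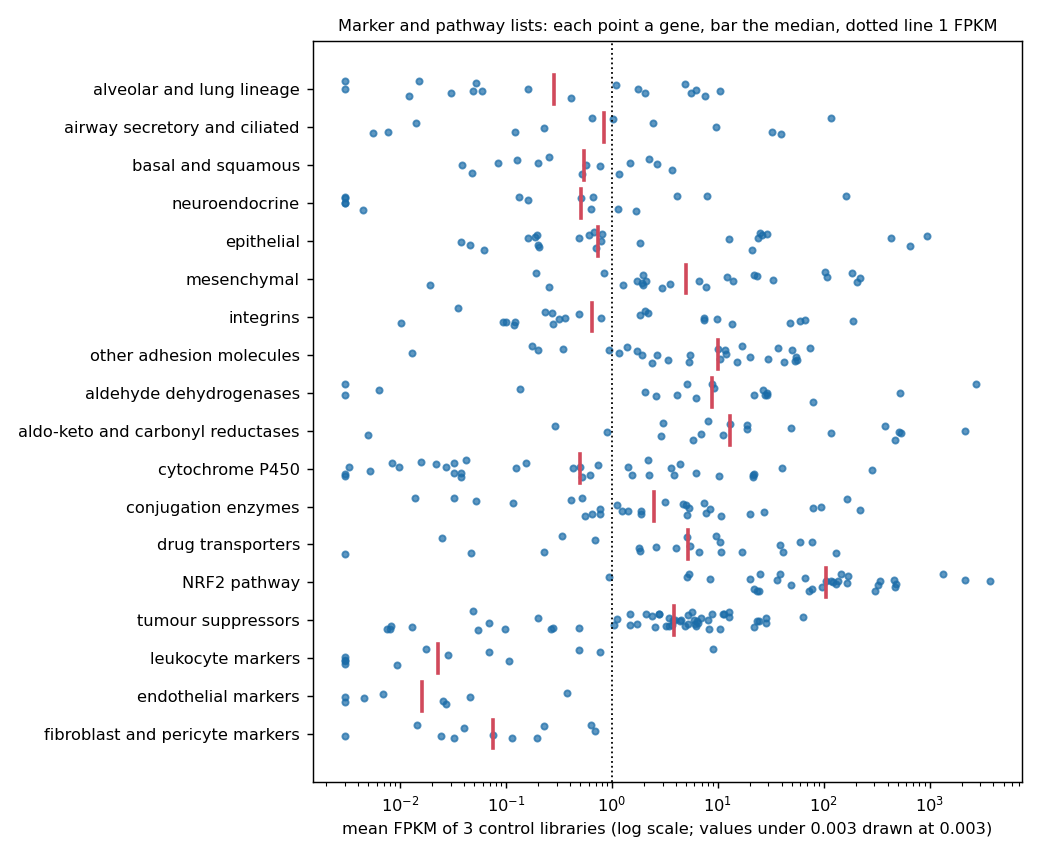
Mean FPKM (log scale) of the members of each gene list in the 3 control libraries. Each point is a gene, drawn at 0.003 where lower, red bars are list medians and the dotted line marks 1 FPKM; the lists of leukocyte, endothelial and fibroblast markers lie mostly under the line, and nearly all NRF2 pathway genes lie above it.

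Enzymes of drug and aldehyde metabolism were among the most abundant messages. Of 19 aldehyde dehydrogenases 15 were expressed, with a median of 8.78 FPKM. After ALDH1A1 and ALDH3A1 came ALDH3B1 (81.3, 80.7 and 77.5 FPKM), the mitochondrial ALDH1B1 (29.3 FPKM) and ALDH2 (26.98, 27.1 and 30.4 FPKM), and ALDH18A1, an enzyme of proline synthesis (29.2 FPKM). ALDH1A2 and ALDH3B2 were silent. The family thus ranged from silent members to the second most abundant nuclear message.

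Of 19 aldo-keto and carbonyl reductases 16 were expressed, 6 of them at 100 FPKM or more, and the median was 13.1 FPKM. Below AKR1B10, AKR1C3 and AKR1C2 were the quinone reductase NQO1 (474, 476 and 468 FPKM), aldose reductase AKR1B1 (368, 362 and 393 FPKM) and AKR1C1 (112, 114 and 126 FPKM). NQO1 had nearly the same level in the 3 libraries (472 ± 4.11). AKR1B1 and AKR1C1 were highest in replicate 3.

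Cytochromes P450 showed another pattern. Of 35 genes of this list 14 were expressed, with a median of 0.497 FPKM. CYP24A1, which inactivates vitamin D, stood far above the rest at 299, 297 and 262 FPKM (286 ± 20.7). The electron donor of these enzymes, POR, was at 40.5 FPKM, CYP1B1 at 22.04, CYP2S1 at 21.3 and CYP51A1, of sterol synthesis, at 21.2. The dioxin receptor AHR was at 10.1 FPKM, and its inducible target CYP1A1 at 0.547, 0.612 and 0.418 FPKM. CYP3A4, the main drug-oxidising enzyme of the liver, was at 0.0319 FPKM, and CYP2C8, CYP2E1 and CYP27A1 were silent.

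Of 30 conjugation enzymes 20 were expressed. Glutathione transferase GSTP1 was at 216, 219 and 229 FPKM, the epoxide hydrolase EPHX1 at 162, 168 and 163 FPKM and the microsomal transferase MGST1 at 78.6, 82.3 and 77.97 FPKM. UGT1A9, a glucuronosyltransferase, had 93.2, 96.2 and 90.8 FPKM, but the UGT1A genes share their last exons, so that reads cannot be given to 1 of them. GSTO1 and GSTK1 were at 27.02 and 20.2 FPKM. Per kilobase of principal transcript MGST1 was at 605, more than EPHX1 at 227, so that the order of these enzymes depends on the length used. The principal transcript of a gene can lack parts of its untranslated regions, and then this level is too high.

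Of 22 drug transporters 16 were expressed. Export pumps of conjugates led: ABCC3 at 133, 130.5 and 127 FPKM, ABCC2 at 79.1, 79.4 and 73.8 FPKM and ABCC1 at 59.1, 60.2 and 59.7 FPKM. SLC22A3, an organic cation carrier, was at 40.9 FPKM. The cystine carrier SLC7A11 was at 34.9, 35.1 and 45.2 FPKM, highest in replicate 3. SLCO1B3, a carrier known from the liver, was at 16.8 FPKM. The multidrug pump ABCB1 had 74, 0 and 0 counts, so that its reads came from replicate 1 alone, while ABCG2 was at 7.55, 6.96 and 5.49 FPKM. SLCO2A1 was silent.

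The NRF2 pathway list was among the highest of all lists. Of its 33 genes 32 were expressed, 29 at 10 FPKM or more and 17 at 100 or more, with a median of 103.9 FPKM. Among all nuclear protein-coding genes 63.0% were expressed, 21.8% reached 10 FPKM and 1.36% reached 100. The list includes abundant enzymes named above (FTL, FTH1, AKR1B10, NQO1), so the lists are not independent. PGD, an enzyme of NADPH supply, was at 464, 473 and 489.8 FPKM. Thiol and peroxide enzymes were PRDX1 (451, 468 and 456 FPKM), TXN (323, 322 and 325 FPKM), TXNRD1 (294, 296 and 323 FPKM), GPX2 (139.9, 141 and 155 FPKM) and SRXN1 (117, 119.9 and 128 FPKM). In none of these 6 genes did a library lie 1.5-fold from the others. The regulators themselves were lower: NFE2L2 was at 4.41, 5.03 and 5.98 FPKM, or 26.98 per kilobase of principal transcript, and KEAP1 at 21.95, 21.98 and 21.3 FPKM. Message levels of the regulators do not measure NRF2 protein.

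Promoter sequences from RefSeq (GRCh38.p14), 250 bases before to 50 after the first listed start, were matched by symbol for 13196 of 16252 protein-coding symbols (81.2%). The motif TGACNNNGC, the core of the element that NRF2 binds, was searched on both strands; it overlaps in part the element of the AP-1 factors. It was found in 14.6% of these promoters. It was found in 14.8% of promoters of genes at 1 to 10 FPKM, 15.9% at 10 to 100 FPKM and 19.5% of the 195 at 100 FPKM or more. Of the NRF2 list, 24 of 33 had a promoter row, too few to give a share, and 7 of them held the motif: MAFF, GCLM, TXNRD1, GPX2, PGD, ME1 and CBR1. A match is a run of letters and not a shown binding site. TXNRD1, thioredoxin reductase, and GPX2, a glutathione peroxidase, are printed because they are abundant members with a match. Only the first listed start of a gene was searched, so the stretches printed need not be the promoters behind those levels. The sequences run 5′ to 3′ from 250 bases before the start to the first transcribed base, at chr12:104215529-104215779 on the plus strand for TXNRD1 and chr14:64942745-64942995 on the minus strand for GPX2, and capitals mark the motif.
TXNRD1: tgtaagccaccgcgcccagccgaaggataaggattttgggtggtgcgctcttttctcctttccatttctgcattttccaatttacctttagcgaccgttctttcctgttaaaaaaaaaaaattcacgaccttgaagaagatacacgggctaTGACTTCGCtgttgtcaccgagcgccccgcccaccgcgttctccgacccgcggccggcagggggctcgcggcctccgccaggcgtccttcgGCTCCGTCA
GPX2: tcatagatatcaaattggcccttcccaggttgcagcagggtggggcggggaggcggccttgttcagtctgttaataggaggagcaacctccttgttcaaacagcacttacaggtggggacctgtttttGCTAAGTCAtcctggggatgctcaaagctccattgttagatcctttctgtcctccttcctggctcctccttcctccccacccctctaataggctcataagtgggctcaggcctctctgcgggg
TXNRD1 had 2 matches, at -99 to -91 on the sense strand and at -8 to 1 on the opposite strand, and GPX2 had 1, at -122 to -114 on the opposite strand, counted from the start at 1.

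Among genes at 1 FPKM or more, CG pairs, the target of DNA methylation, were about as frequent in promoters at each level. The median ratio of observed to expected CG pairs was 0.848 for promoters of genes at 1 to 10 FPKM, 0.874 at 10 to 100 FPKM and 0.861 at 100 FPKM or more. A ratio of 0.6 or more was found for 84.9%, 89.3% and 84.1% of them. Over all 13196 matched promoters, those of genes under 1 FPKM included, the median was 0.802 and 73.5% reached 0.6. Under 1 FPKM the matched share was below 80% (75.3%, and 70.0% of silent genes), so the check is void there. ALDH1A1 and CDKN2A are printed as an abundant gene with few CG pairs and a nearly silent gene with many. The products of CDKN2A include an inhibitor of the kinases that start the cell cycle. ALDH1A1 is at chr9:72953053-72953303 and CDKN2A at chr9:21995324-21995574, both on the minus strand, from 250 bases before RefSeq's first listed start to the first transcribed base, and capitals mark CG pairs.
ALDH1A1: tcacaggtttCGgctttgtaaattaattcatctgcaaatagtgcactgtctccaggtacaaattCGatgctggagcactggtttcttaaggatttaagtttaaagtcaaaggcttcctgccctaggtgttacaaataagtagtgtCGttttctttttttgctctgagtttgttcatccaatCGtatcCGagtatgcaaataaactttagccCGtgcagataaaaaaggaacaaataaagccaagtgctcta
CDKN2A: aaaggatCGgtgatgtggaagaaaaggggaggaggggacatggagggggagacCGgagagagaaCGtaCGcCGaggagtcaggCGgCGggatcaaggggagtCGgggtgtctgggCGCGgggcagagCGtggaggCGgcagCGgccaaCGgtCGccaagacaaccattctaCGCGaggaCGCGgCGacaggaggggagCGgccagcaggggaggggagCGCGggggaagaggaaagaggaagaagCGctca
The ALDH1A1 stretch holds 6 CG pairs and the CDKN2A stretch 24. The CDKN2A stretch lies upstream of the span of its expression row, chr9:21967752-21994873. CDKN2A has further starts downstream that are not shown, so the stretch may not be the promoter of the kinase inhibitor. Methylation was not measured.

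Of 54 tumour suppressor genes 42 were expressed, 11 at 10 FPKM or more, and none was silent by the rule of 3 counts. The median was 3.84 FPKM against 2.78 for all protein-coding genes. TGFBR2, a receptor of TGF-beta, was highest at 63.4, 65.9 and 62.95 FPKM. GPRC5A, a lung-enriched receptor, was at 30.6, 29.7 and 25.4 FPKM, CDKN1A, the kinase inhibitor p21, at 26.5, 27.9 and 30.6 FPKM and RBM10, a splicing factor, at 23.8, 25.4 and 20.5 FPKM. The retinoblastoma gene RB1 was at 8.42, 8.9996 and 7.202 FPKM and STK11, the kinase LKB1, at 4.72, 5.24 and 5.67 FPKM. SMARCA4, the ATPase of the SWI/SNF chromatin remodeller, was near the limit at 1.07, 1.16 and 1.08 FPKM, and its relative SMARCA2 was at 7.22, 7.17 and 6.395 FPKM.

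The other 12 tumour suppressors lay under 1 FPKM. No normal lung was measured, so their levels are not shown to be a loss. The highest of them were PTPRD (0.492 FPKM), the retinoic acid receptor RARB (0.2795 FPKM), FHIT (0.265 FPKM), CDKN1C (0.201 FPKM) and ZMYND10 (0.0982 FPKM), whose reads were found in each library. FHIT spans a long fragile site and had 171, 140 and 146 counts. DLEC1 (0.0682 FPKM) and LRP1B (0.00742 FPKM) had few reads in each library, with 20, 4 and 5 counts for LRP1B. The tissue inhibitor of metalloproteinases TIMP3 had 38, 16 and 0 counts, CDH13 0, 15 and 19 and the Wnt inhibitor WIF1 0, 0 and 4. CDKN2A (ENSG00000147889, chr9:21967752-21994873) had 43, 9 and 0 counts and its neighbour CDKN2B 0, 8 and 0. Several of these genes had reads in 1 or 2 libraries and 0 in the rest, so their levels were not alike in the replicates. Just above the limit stood MGMT at 1.07, 1.19 and 0.8596 FPKM, which repairs alkylated DNA.

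**Figure D3:**
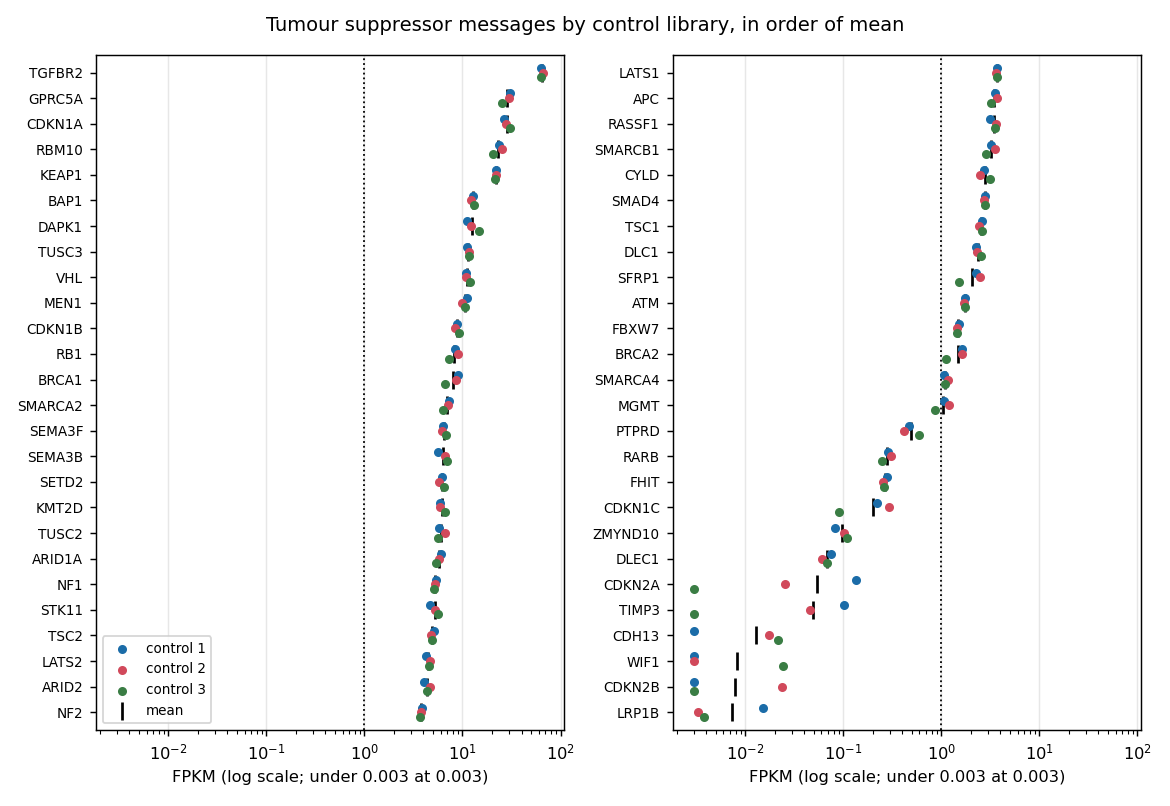
FPKM (log scale; values under 0.003 drawn at 0.003) of 52 of the 54 tumour suppressor genes in control replicates 1, 2 and 3, in order of the mean, with black ticks for means and a dotted line at 1 FPKM. TGFBR2 stands at the top, and 12 genes, CDKN2A and CDKN2B among them, stand left of the line.

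Genes around CDKN2A on chromosome 9 were read in their order along the chromosome. FOCAD (8.48, 8.39 and 7.38 FPKM) and KLHL9 (15.8, 16.9 and 14.97 FPKM) on one side and CAAP1 (12.2, 11.6 and 13.2 FPKM) and PLAA (15.1, 15.6 and 14.4 FPKM) on the other were expressed in each library. Between them MTAP, an enzyme of methionine salvage and the direct neighbour of CDKN2A, was at 0.742, 0.689 and 0.556 FPKM, and per kilobase of principal transcript at 1.58. Next to CDKN2B, DMRTA1 was at 0.431, 0.301 and 0.423 FPKM and ELAVL2 at 0.127, 0.0653 and 0.0617 FPKM. IFNE, in the interferon cluster, was at 2.81, 2.66 and 3.33 FPKM, while IFNA21 and IFNA5 had 0 counts in the 3 libraries. Most interferon genes are silent in unstimulated cells, and DNA copy number was not measured.

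**Figure D4:**
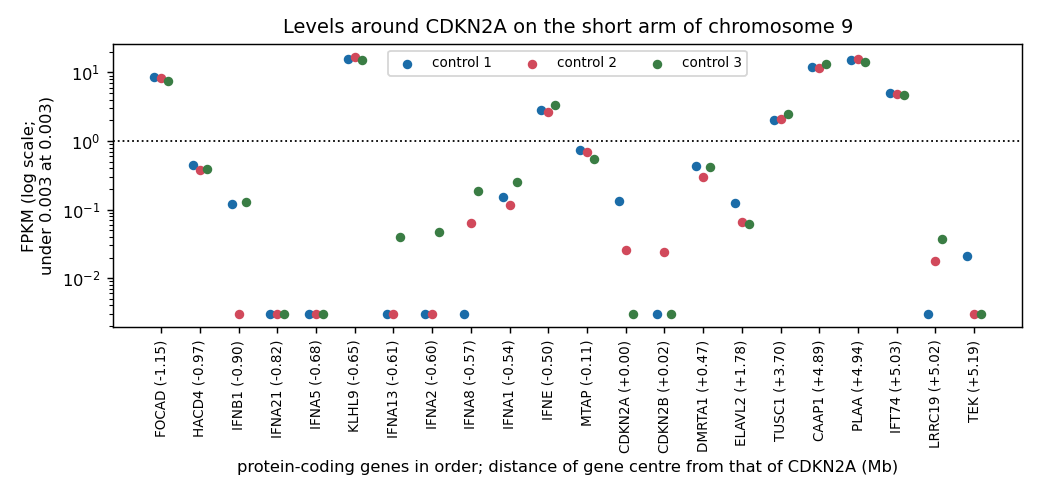
FPKM (log scale; values under 0.003 drawn at 0.003) of genes around CDKN2A in their order on the chromosome, with the distance from CDKN2A in megabases beside each name and a dotted line at 1 FPKM. CDKN2A and CDKN2B lie near the bottom between MTAP and DMRTA1, and FOCAD, KLHL9, CAAP1 and PLAA lie above 7 FPKM in each library.

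Of 33 growth drivers 23 were expressed. The receptor kinase MET was at 56.3, 56.4 and 57.5 FPKM and EGFR at 18.1, 18.5 and 20.9 FPKM. Cell cycle drivers were CCND1 (58.1, 58.5 and 50.5 FPKM), CDK4 (47.3 FPKM) and CCND3 (23.6 FPKM), and MYC was at 28.8, 29.8 and 27.6 FPKM. NRAS was at 14.3, 15.04 and 13.99 FPKM, and 14.02 per kilobase of principal transcript.

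IGF2BP3, the RNA-binding protein that the study removed in its other cells, was at 6.501, 5.69 and 5.94 FPKM (6.04 ± 0.414) in these controls. Its relative IGF2BP1 was higher at 19.3, 18.3 and 19.3 FPKM and IGF2BP2 lower at 3.07, 3.15 and 3.19 FPKM, and the 3 libraries of each gene did not overlap with those of the others. Of the other fetal genes of this list, the chromatin protein HMGA1 was at 109, 116 and 105 FPKM and LIN28B at 0.4895, 0.408 and 0.248 FPKM. Of 24 listed cancer-testis genes, which are normally kept off outside the germ line, 16 had a row. Of these 4 (25%) were expressed, against 63.0% of all nuclear protein-coding rows. They were PRAME at 35.9, 35.2 and 29.6 FPKM, XAGE1B at 9.32, 9.48 and 8.59, MAGEA3 at 6.09, 5.19 and 5.41 and MAGEA6 at 2.898, 3.298 and 3.05. MAGEA3 and MAGEA6 are near copies, and their separate levels are uncertain.

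Markers of other cell types were low. Of 12 leukocyte markers 1 was expressed, CD14 at 9.18, 9.49 and 8.57 FPKM, and PTPRC, CD3E, FCER1G and TYROBP were silent. The summed level of the leukocyte list was 11.2, 11.1 and 9.46 FPKM, most of it CD14. None of 8 endothelial markers (summed 0.418 to 0.532 FPKM, with KDR and ERG silent) and none of 11 fibroblast and pericyte markers (summed 1.71 to 2.21 FPKM, with COL1A2 silent) was expressed. Of 11 hepatocyte and intestinal markers 6 were expressed, led by fibrinogen FGB at 28.5, 26.2 and 37.7 FPKM.

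Within that list the libraries differed. Albumin, ALB, was at 7.72, 3.95 and 0.0306 FPKM, from 2116, 995 and 8 counts, and the liver secretions SERPINA1 (2.65, 1.26 and 0.469 FPKM), APOA1 (2.17, 1.18 and 0 FPKM) and APOA2 (2.32, 0.895 and 0 FPKM) ran the same way, highest in replicate 1 and lowest in replicate 3. FGB did not: it was highest in replicate 3. Of 16851 nuclear protein-coding rows, 37 had at least 50 counts in replicate 1 and 3 or fewer in replicate 3, against 12 the other way round. By the same limits 15 genes were present in replicate 1 and not in 2, and 11 the other way round. Between replicates 2 and 3 these numbers were 18 and 7. The limits and the 37 genes were chosen after their values were seen. The 37 included the fetal liver protein AFP with 478, 284 and 0 counts, A2M with 734, 274 and 0, the lipid carrier APOB with 660, 250 and 0 and GC with 346, 118 and 0, all proteins that the liver secretes. They also included other kinds of genes, such as POSTN, PDGFRB, RET and KLK5, and 9 of the 37 had 3 counts or fewer in replicate 2 too. In 27 of the 37 the level in replicate 2 was above 3 counts and below that of replicate 1, and the median ratio of replicate 2 to replicate 1 was 0.385. Choosing genes by high counts in replicate 1 favours a lower replicate 2, so nothing is concluded from this order. ABCB1 (74, 0 and 0 counts) and MAGEA4 (119, 0 and 0 counts) were among the 37. CDKN2A and TIMP3, with under 50 counts in replicate 1, were not, but also had their most reads there and 0 in replicate 3. The 37 genes held 5441 counts in replicate 1, or 0.00957% of its FPKM, and whether these reads came from the control cells was not tested. In replicate 3 only FGB and CDH17 of this list were at 1 FPKM or more. ALB, APOA1 and APOA2 were at or near 0 there, and CDKN2A and CDKN2B had 0 counts. CDKN2B also had 0 counts in replicate 1, where ALB, APOA1 and APOA2 were highest, and 8 in replicate 2. A link between these genes was not tested.

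Silent genes made up 1029 (6.11%) of the nuclear protein-coding rows, and 805 of them had 0 counts in the 3 libraries. The table lists only part of some families, so counts are of rows. Of 57 olfactory receptor rows none was expressed and 28 were silent, and of 18 keratin-associated protein rows none was expressed and 9 were silent. Of 17 taste receptor rows none was expressed. HOX genes, which keep a memory of body position, were partly on: 17 of 37 rows were expressed and 3 silent, with HOXB7 highest at 16.98 FPKM. Of 475 zinc finger genes named ZNF in this family, 271 were expressed and 21 silent. Of 51 clustered protocadherins 5 were expressed. Along the chromosomes, 4 runs of at least 5 neighbouring silent rows were found, with 24 genes in all. They lay in the USP17L repeats on chromosome 4 (runs of 8 and 6), in the olfactory receptors from OR2J3 to OR2H1 on chromosome 6 and from SPANXC to MAGEC2 on the X chromosome. None held a gene of the tumour suppressor list, and none could, since no gene of that list was silent.

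The 3 control libraries were alike for most genes, and replicate 3 stood apart. Over 6657 genes at 5 FPKM or more the median coefficient of variation (SD over mean) was 5.77%, and it was under 5% for 2833 (42.6%) and over 25% for 139 (2.09%). Without replicate 3 the median was 2.52%. A level at least 1.5-fold from both other libraries was found for 109 genes in replicate 3, 56 above and 53 below. Replicate 1 had 16 such genes and replicate 2 had 17. The biological coefficient of variation estimated by edgeR over 18043 genes was 16.7%, and 12.9% without replicate 3. Genes with the smallest spread included LIN7C, a polarity protein at 5.06, 5.07 and 5.07 FPKM, the glucocorticoid receptor NR3C1 at 30.3, 30.3 and 30.2 FPKM and the proteasome factors POMP and PSMA6. The largest spread was that of BEST1, a chloride channel, at 16.1, 0.169 and 0.2803 FPKM; it overlaps the ferritin gene FTH1, and its reads and those of FTH1 may not be separable.

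Several genes of amino acid supply and stress were among those farthest above in replicate 3 and are given for that reason. The stress response list as a whole was mixed: of 21 members at 5 FPKM or more, 12 lay above both other libraries in replicate 3, 7 below and 2 between, with a median log2 ratio of 0.12 to the mean of the others. Over all 6347 nuclear protein-coding genes at 5 FPKM or more, replicate 3 lay above both others for 41.8% and below both for 42.9%. Asparagine synthetase ASNS was at 5.94, 6.19 and 28.3 FPKM, the pseudokinase TRIB3 at 14.1, 14.3 and 48.9 FPKM and STC2, a secreted hormone of stressed cells, at 3.78, 3.43 and 19.95 FPKM. Replicate 3 lay well above both others for each of them, while replicates 1 and 2 were close. MAT2A, which makes S-adenosylmethionine, was at 129.8, 132 and 429 FPKM, the serine enzyme PSAT1 at 45.7, 48.97 and 115 FPKM and PCK2 at 6.76, 6.699 and 20.4 FPKM. GDF15, a stress cytokine, was at 6.498, 4.93 and 12.95 FPKM and the stress factor DDIT3 at 6.57, 6.39 and 14.4 FPKM. The stress-induced transcription factor ATF4 was at 92.1, 90.96 and 163 FPKM, and DDIT4, a brake on growth signalling, at 95.3, 89.3 and 164 FPKM. The chaperones of the endoplasmic reticulum did not run the same way: HSPA5 was at 137, 136 and 103 FPKM and CALR at 268, 274 and 196 FPKM, lowest in replicate 3. Other rows far above in replicate 3 were NME1-NME2, RPL14P1, MT-TM and MT-TK, a readthrough row, a pseudogene and mitochondrial transfer RNAs, whose counts are uncertain.

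Several DNA replication genes were among those farthest below in replicate 3 and are given for that reason. The helicase subunits MCM2 (33.98, 32.7 and 17.8 FPKM) and MCM6 (28.6, 30.3 and 15.9 FPKM) and the replication factors MCM10 (10.6, 10.96 and 5.35 FPKM), CDC6 (20.5, 20.9 and 10.7 FPKM) and ORC1 (9.92, 9.58 and 4.96 FPKM) were lowest there. So were RRM2, which makes deoxynucleotides (22.1, 22.2 and 11.1 FPKM), FAM111B (10.96, 11.6 and 4.34 FPKM) and CDCA7 (9.97, 8.99 and 5.27 FPKM). The rows farthest below also held CRY1 (5.897, 6.66 and 3.07 FPKM) and SENP3-EIF4A1 (34.1, 134 and 18.9 FPKM). BCL2L2-PABPN1 and RPL41P5 were among them too. SENP3-EIF4A1 and BCL2L2-PABPN1 are readthrough rows and RPL41P5 is a pseudogene, so their counts are uncertain. PCNA, the clamp of DNA polymerase, was at 296, 304 and 183 FPKM. Of the 22 mitotic and replication genes all 22 were lower in replicate 3 than in both others, and the median log2 ratio of replicate 3 to the mean of the others was -0.31. The 12 NF-kB targets and cytokines at 5 FPKM or more were all higher in replicate 3, with a median log2 ratio of 0.36, among them CXCL5 (110.3, 114 and 161 FPKM), CXCL1 (37.4, 35.5 and 52.5 FPKM) and CXCL8 (7.11, 7.21 and 15.3 FPKM). These are descriptions of 1 library, with no test.

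**Figure D5:**
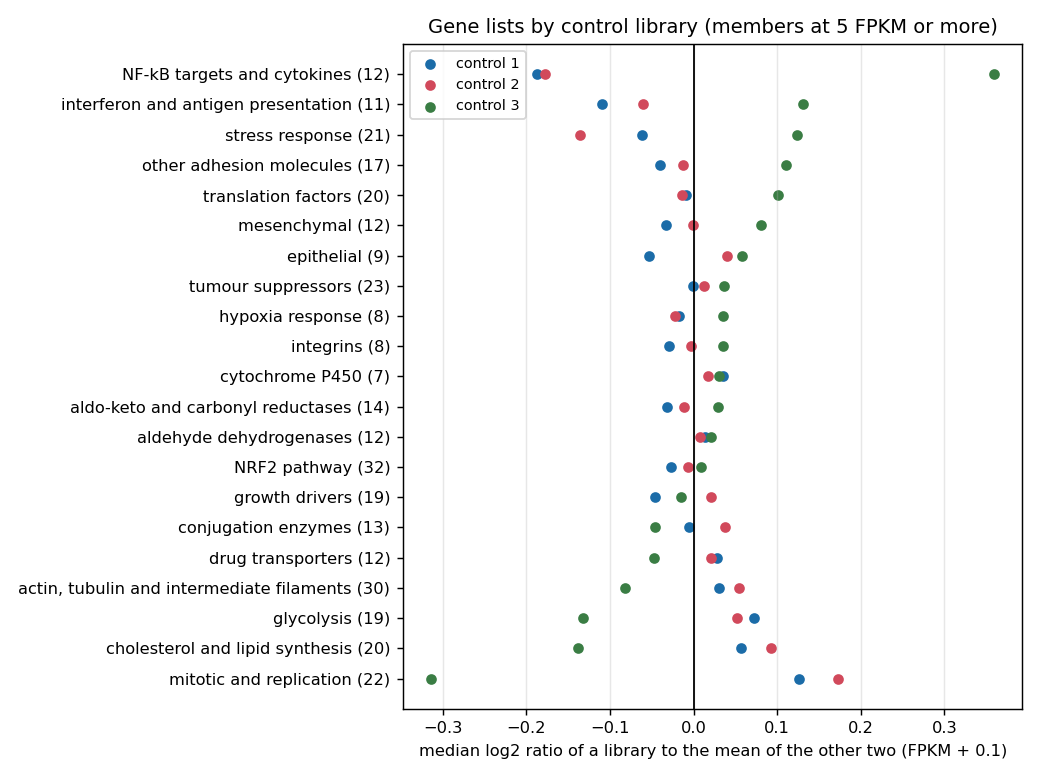
Median log2 ratio of each control library to the mean of the other 2 for gene lists with at least 7 members at 5 FPKM or more, with the number of such members beside the name. Replicate 3 spans -0.31 for mitotic and replication genes to 0.36 for NF-kB targets, and replicates 1 and 2 lie between -0.19 and 0.17.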

How the data were processed

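Total RNA was sequenced in 3 control libraries. Per the labels' protocols, the authors trimmed reads with Cutadapt, aligned them with HISAT2 and reconstructed and quantified transcripts with StringTie. Versions 2.0.4 of HISAT2 and 1.3.4d of StringTie, the build GRCh38 and the use of edgeR come from the submitters' processing notes. Which Cutadapt version, annotation and strand setting were used is not given in the sources used here. Antisense and overlapping genes therefore cannot be told apart. Per the file headers, the deposited table gives read counts and FPKM per gene and library. The deposited counts are whole and not normalized, and the FPKM were scaled by the authors for gene length and library size. Even numbers made up 69.9% to 71.0% of the counts between 4 and 10, and 50.0% to 50.1% of those above 100. Both mates of a pair thus appear to be counted, and fragments are fewer than counts.

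Of the 35784 rows, 16864 have a protein-coding transcript by their deposited transcript types, 9368 have no symbol and 411 repeat one. For a repeated symbol the row with most counts was used. Exon and principal transcript lengths were taken from GENCODE 29. The 6 columns of the other group were not used. Pairs of control libraries differed by more than sampling noise (chi-square per degree of freedom 12.2 to 45.3) and were kept as 3 samples. Levels are means of FPKM with the SD. The common dispersion was estimated with edgeR 4.0.16 in R 4.3.3 from counts with an intercept only, after TMM scaling (factors 0.996 to 1.01), and tested on simulated data. There is 1 group, so no test between groups was made and no p-value is given. The 32 gene lists and the 3 libraries were chosen with earlier results of these data known. Listed genes without a row were left out of the list sizes given. These were 8 of 24 cancer-testis, 5 of 17 leukocyte, 4 of 19 neuroendocrine and 3 of 15 airway genes, with others in further lists. Named genes are the 4 marks, the 25 most abundant nuclear protein-coding genes with at least 100 counts in each library, up to 6 of the highest and up to 6 silent members of each list, tumour suppressors under 1 FPKM, the 10 genes of largest and of smallest spread and the 12 farthest above and below in the library that stood apart. Other genes named were chosen after their values were seen. Promoters of chromosome 8 were not used, and a few genes and 1 list, among them a value that goes against the line name in the labels, are not reported here. Alternatives changed the level, fold and count limits, the length, the scale and the libraries used.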

Additional observations from a re-analysis of the deposited data

How the results depend on the processing

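No paired analysis was possible because there is 1 group and no test between groups. The 10 most abundant rows held 20.1% of the FPKM (19.99% to 20.2% when 1 library was left out), but 9.42% without the mitochondrial genome, 5.28% as a share of counts and 13.2% with principal transcript length, an alternative chosen after seeing the data. The mitochondrial share was 24.7% (24.6% to 24.8%) and 6.05% of counts. The ribosomal protein share was 4.92% (4.79% to 5.00%), 4.16% of counts and 6.53% without the mitochondrial genome. Silent protein-coding genes numbered 1029 (1290 to 1375 with 1 library left out, where fewer libraries must be silent) and 2093 at 10 counts or fewer. The median coefficient of variation was 5.77% (2.52% to 5.91%) and 27.5% with no filter. The biological coefficient of variation was 16.7% (12.9% to 18.7%) and 28.2% with no filter. Genes apart in replicates 1, 2 and 3 numbered 16, 17 and 109, but 5, 10 and 24 at 2-fold and 134, 131 and 346 among genes at 1 FPKM or more. ALDH1A1 was at 2761 FPKM (2718 to 2801), 10566 after rescaling FPKM to TPM and 3715 by principal length. The same values were 2163 (2144 to 2181), 8278 and 2408 for AKR1B10, 651 (643 to 664), 2492 and 2104 for KRT8, and 222 (218 to 224), 848 and 536 for VIM. The count of expressed genes among all rows, 12054, stayed within 1.5 times under each setting run (11541 to 16209; 12056 to 12067 with 1 library left out). A list median of 1 FPKM or more was found for 20 of 32 lists, 19 to 20 with 1 library left out and 23 by principal length. Depth limits what can be said of genes with few counts.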

Other observations

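Housekeeping pathways outside those described above ran high in the control cells. Of 25 glycolysis genes 22 were expressed, with a median of 22.3 FPKM, and after GAPDH and ENO1 came PKM (478, 478 and 442 FPKM), TPI1 (335, 338 and 332 FPKM), ALDOA (297, 312 and 315 FPKM) and LDHB (299.7, 310.4 and 291 FPKM). All 22 mitotic and replication genes exceeded 10 FPKM, with a median of 34.9 FPKM and with TOP2A, which untangles DNA, at 132, 130.02 and 119.6 FPKM and CCNB1 at 77.2, 79.4 and 67.1 FPKM. All 22 cholesterol and lipid synthesis genes were expressed, led by ACLY (176, 182 and 166 FPKM), which supplies acetyl-CoA, and the desaturase SCD (109, 111 and 103 FPKM). Of 20 of these lipid genes at 5 FPKM or more, 17 were lowest in replicate 3, for example HMGCS1 at 29.5, 28.7 and 17.6 FPKM, as were 16 of 19 glycolysis genes and all 22 mitotic and replication genes. Over all nuclear protein-coding genes at that level the share was 42.9%.

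Interferon and antigen presentation genes lay near the level of all genes. Of 35 such genes 25 (71.4%) were expressed, against 63.0% of all nuclear protein-coding genes. Their median was 2.61 FPKM against 2.78. The highest were B2M (119, 117 and 131 FPKM) and the interferon-induced IFITM2 (67.4, 61.3 and 68.97 FPKM). Among the lowest were MX1 (0.105 FPKM), OAS2 (0.0214 FPKM) and HLA-DRA, of class II, with 4, 0 and 0 counts. Of 17 hypoxia response genes 13 were expressed. CA12, a carbonic anhydrase, was at 104, 103 and 114 FPKM and the glucose carrier SLC2A1 at 16.6, 16.8 and 18.4 FPKM. VEGFA was at 2.42, 2.59 and 4.98 FPKM, higher in replicate 3 than in both others, and at 40.1 per kilobase of principal transcript. Of rows without a protein-coding transcript, several of the most abundant were pseudogenes of abundant genes, such as MTATP6P1 (578, 627 and 597 FPKM) and EEF1A1P5 (315, 292 and 382 FPKM), whose reads may belong to the parent genes.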
